A study of Homo sapiens with 6 samples.

Results

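Metallothioneins are small, cysteine-rich proteins that bind zinc, copper and cadmium, and their genes lie side by side in a cluster on human chromosome 16. MTF1, the metal-responsive transcription factor, senses free zinc and binds metal response elements in the metallothionein promoters. Glucocorticoids and oxidative stress also induce several of these genes, and astrocytes are a known site of their expression in the brain. MT1 and MT2 isoforms are made in most tissues, whereas MT3 is known mainly from neurons and astrocytes.

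The 14 probe sets described here, of 22215 non-control probe sets on the array, were every one whose platform annotation lists MT1E, MT1F, MT1G, MT1H, MT1M, MT1X, MT2A, MT3 or MTF1. A probe set is a group of short probes read together as 1 value. None of these probe sets lists several genes. Of the 12 for metallothioneins, however, 9 have an identifier ending in _x_at, the manufacturer's mark for probes that can also bind other sequences, and coding sequences in this family are nearly identical. Gene names below are therefore those of the annotation, and signals of sister genes cannot be told apart on _x_at probe sets.

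Untreated U87MG and T98G cultures, both established human glioblastoma lines grown in serum-containing medium, were compared on Affymetrix arrays, with 3 arrays for each line. The labels set the lines apart by how they die: U87MG resists apoptosis under the proteasome inhibitor bortezomib and the compound G5, to which T98G is sensitive. They name no allele, transgene or agent for either line and do not say whether arrays came from separate cultures. P-values then reflect array-to-array spread, which may be technical. Values are the deposited levels on a log2 scale, differences are U87MG minus T98G, and a probe set was called where limma's adjusted p was under 0.05 and the fold reached 2. The RNA came from whole cultures, so fewer cells with a transcript and less of it per cell cannot be told apart.

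Pearson's r over probe sets was 0.990 to 0.997 within a line and 0.934 to 0.939 between lines. Array medians ran from 7.55 to 7.65. VIM and CD44, expressed in many glioblastoma lines, read 14.85 and 13.68 in U87MG and 14.59 and 13.93 in T98G. The glial markers GFAP, S100B, OLIG2, AQP4 and FABP7 read only 4.18 to 6.56 in U87MG and 4.04 to 6.46 in T98G. On the brightest probe set of each gene, NES, a neural progenitor filament gene, was the only one of 9 glial and progenitor markers called. It was 5.85-fold higher in U87MG. The 8 CD44 probe sets ran from -1.45 to -0.23, of which 7 were not called and another was called lower. Among neuronal and fibroblast markers, SNAP25 and LUM were called higher by 3.03-fold and 4.95-fold and PDGFRA lower by 8.80-fold, and their part in the metallothionein differences was not tested. The 8 leukocyte and endothelial markers measured, which these cells should lack, read 3.83 to 7.32 in U87MG and 3.92 to 7.42 in T98G. A level in that range does not show that a transcript was present, and detection calls were not used here. NES in T98G, PDGFRA in U87MG and LUM in both lines read in or below that range, so the sizes of those folds are uncertain. Of 3 PDGFRA probe sets, 1 was called. The fibroblast marker COL1A2 was not called on its brightest probe set, but its other probe set had -1.02 and was called lower.

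Metal response elements are the sequence feature that links the cluster to MTF1, so the promoters available for members are shown first. The RefSeq promoter table of build GRCh38.p14 matched 4 of the 9 members, namely MT2A, MT1H, MT1X and MTF1, with a window of 250 bases before to 50 after each gene start. No window is printed for MT1E, MT1F, MT1G, MT1M or MT3. The core of the element was searched as TGCACNC and TGCGCNC on both strands, and matches are in capitals.
MT2A promoter: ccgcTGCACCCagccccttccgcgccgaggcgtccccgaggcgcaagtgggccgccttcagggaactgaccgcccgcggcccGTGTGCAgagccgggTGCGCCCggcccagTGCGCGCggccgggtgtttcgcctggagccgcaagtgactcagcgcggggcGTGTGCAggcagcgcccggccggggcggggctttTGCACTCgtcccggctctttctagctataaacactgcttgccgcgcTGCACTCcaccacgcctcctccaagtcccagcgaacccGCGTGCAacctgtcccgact
MT1H promoter: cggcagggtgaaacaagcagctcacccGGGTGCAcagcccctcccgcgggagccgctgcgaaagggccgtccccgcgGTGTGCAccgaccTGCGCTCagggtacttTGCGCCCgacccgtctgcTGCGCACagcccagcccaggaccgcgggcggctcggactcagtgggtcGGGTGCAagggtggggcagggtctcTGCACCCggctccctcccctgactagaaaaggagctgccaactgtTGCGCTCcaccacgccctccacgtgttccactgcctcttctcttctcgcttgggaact
MT1X promoter: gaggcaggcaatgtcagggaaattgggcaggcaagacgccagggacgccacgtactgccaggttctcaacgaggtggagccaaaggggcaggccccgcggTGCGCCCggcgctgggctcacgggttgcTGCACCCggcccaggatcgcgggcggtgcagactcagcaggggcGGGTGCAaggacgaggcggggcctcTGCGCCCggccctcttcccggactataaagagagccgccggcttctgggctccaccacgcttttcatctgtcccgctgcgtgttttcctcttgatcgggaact

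These windows lie on the plus strand, at chr16:56608334-56608633 for MT2A, chr16:56669564-56669863 for MT1H and chr16:56682220-56682519 for MT1X. The MT2A window held 8 matches, 5 on the strand of the gene and 3 on the other. The MT1H window also held 8, and the MT1X window 4, of which 3 were on the strand of the gene. No matches overlapped each other. Of 35116 promoter windows in the table, 29.6% held at least 1 match, 0.601% at least 4 and 0.0199% at least 8. The window of MTF1 itself, on chromosome 1, held 0. A match is only a run of letters and does not show that MTF1 binds there.

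U87MG read higher than T98G on most metallothionein probe sets, by unequal amounts. MT1F was 3.84-fold and MT1E 3.31-fold higher on the probe sets that moved furthest. MT1M was 9.87-fold higher, but against T98G readings in the range of markers these cells should lack, so the size of that fold is uncertain. The _x_at probe sets of MT2A, MT1X, MT1H and MT1G were higher by 1.23 to 1.43-fold, short of the 2-fold minimum, while an unmarked MT1G probe set and MT3 were not called. Of the 14 probe sets, 3 were called higher and 0 lower in U87MG by limma, and 0 were lower at an unadjusted p under 0.05. Across all probe sets, 5.93% were called higher and 6.33% lower. At an adjusted p under 0.05 with no minimum difference, 11 of the 14 were higher, against 17.8% of all probe sets, and 0 were lower, against 19.7%. The 3 arrays of U87MG lay wholly above those of T98G on 12 of the 14, against 23.0% of all probe sets, and wholly below on 1, against 26.1%. Differences were positive on 12 of the 14, against 48.3% of all probe sets. The median difference of the 14 was 0.42, beside -0.01 over all probe sets.

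**Figure D1:**
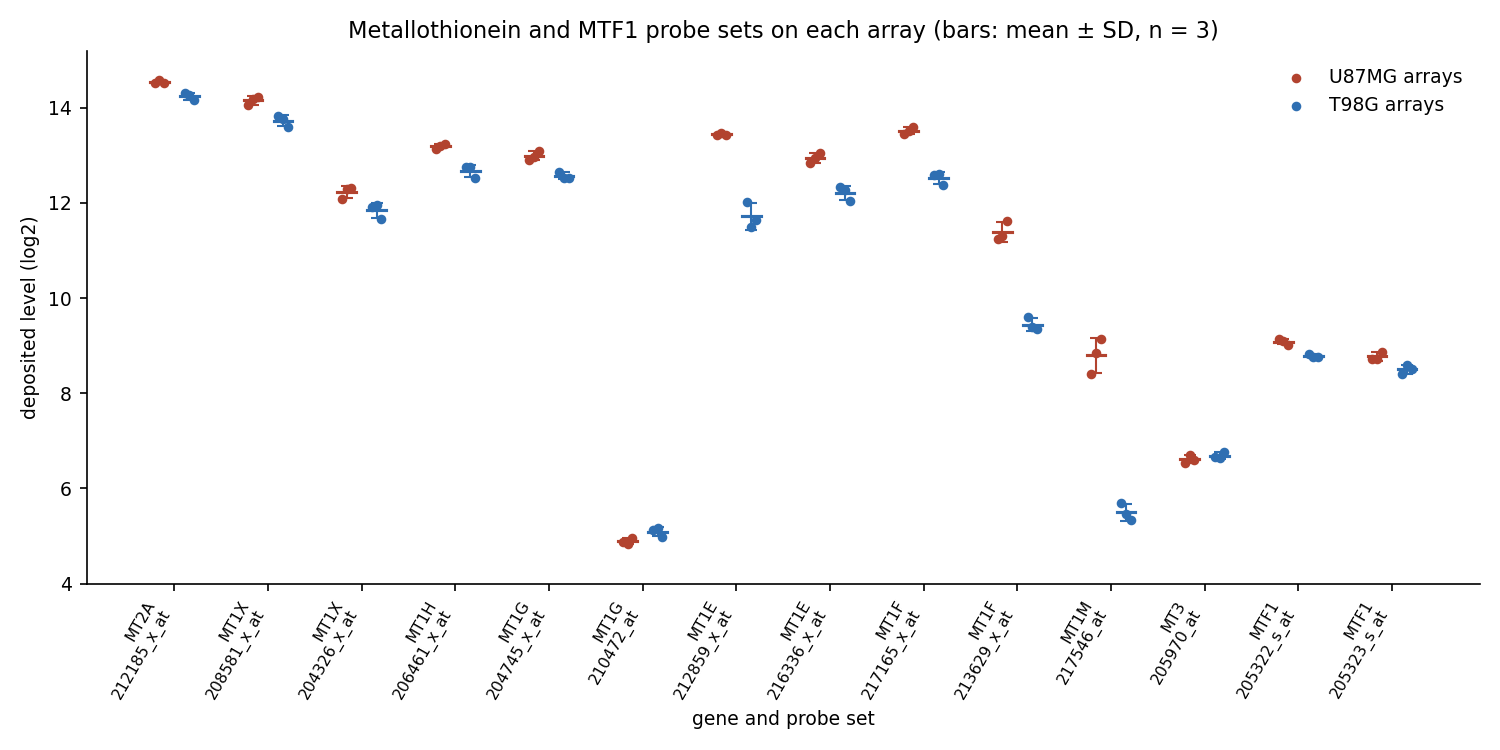
Deposited log2 level of each metallothionein and MTF1 probe set on each array, with U87MG in red to the left of T98G in blue. Points are arrays and bars are mean ± SD (n = 3), and the widest gap is that of MT1M, where U87MG arrays read 8.41 to 9.14 and T98G arrays 5.33 to 5.69.

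MT2A, the main isoform in most human cells, read near the top of the scale in both lines. Its probe set 212185_x_at read 14.52, 14.58 and 14.52 on the U87MG arrays and 14.31, 14.26 and 14.16 on the T98G arrays. The groups did not overlap, but they lay close together, and the highest deposited value of any probe set was 14.93. The difference was 0.29 (SE 0.10, 95% interval 0.08 to 0.51, limma adjusted p = 0.0372). It passed 0.05 only narrowly: without U87MG replicate 1 or 2, or without any of the T98G arrays, the adjusted p was 0.0625 to 0.127. Whether the top of the scale compressed the difference was not tested.

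MT1X, an isoform induced by metals in many cell types, had 2 probe sets whose differences lay close together. The brighter, 208581_x_at, read 14.05, 14.18 and 14.23 in U87MG and 13.82, 13.77 and 13.60 in T98G, a difference of 0.43 (SE 0.11, limma adjusted p = 0.0120). The other, 204326_x_at, read 12.09, 12.29 and 12.31 in U87MG and 11.91, 11.96 and 11.66 in T98G, a difference of 0.39 (SE 0.12, adjusted p = 0.0298). All U87MG arrays lay above all T98G arrays on both. Without T98G replicate 3 the adjusted p was 0.0504 and 0.110, and 204326_x_at also missed 0.05 without U87MG replicate 2 (0.0936), U87MG replicate 3 (0.0608) or T98G replicate 1 (0.0618).

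MT1H and MT1G, further MT1 isoforms, differed by similar amounts on their _x_at probe sets. MT1H read 13.14, 13.21 and 13.23 in U87MG and 12.75, 12.75 and 12.53 in T98G, a difference of 0.52 (95% interval 0.28 to 0.75, limma adjusted p = 0.00375). On 204745_x_at MT1G read 12.90, 12.98 and 13.09 in U87MG and 12.65, 12.53 and 12.53 in T98G, a difference of 0.42 (0.19 to 0.65, adjusted p = 0.00963). Again the groups did not overlap. A second MT1G probe set, 210472_at, which lacks the _x_at mark, read 4.87, 4.83 and 4.96 in U87MG and 5.13, 5.17 and 4.99 in T98G. There the U87MG arrays were the lower ones, by 0.21 (-0.43 to 0.02, adjusted p = 0.144), and both lines read within the range of the leukocyte and endothelial markers. The 2 MT1G probe sets thus disagreed in sign, and MT1G transcript itself is uncertain in both lines.

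MT1E, an isoform close to MT2A in the gene order, was called higher in U87MG on 1 of its 2 probe sets. On 212859_x_at it read 13.43, 13.48 and 13.43 in U87MG and 12.02, 11.49 and 11.63 in T98G. The U87MG arrays sat within a few hundredths of each other and far above the T98G arrays, among which replicate 1 stood apart. The difference was 1.73 (SE 0.14, 95% interval 1.41 to 2.05, limma adjusted p = 1.61e-05). On 216336_x_at the values were 12.83, 12.95 and 13.06 in U87MG and 12.33, 12.28 and 12.04 in T98G, a difference of 0.73 (SE 0.12, adjusted p = 0.00100), short of 2-fold. The 95% intervals of the 2 probe sets did not overlap.

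MT1F, another MT1 isoform, also had 2 probe sets with unequal differences. On 213629_x_at it read 11.24, 11.30 and 11.62 in U87MG and 9.61, 9.39 and 9.34 in T98G, a difference of 1.94 (SE 0.13, 1.64 to 2.24, limma adjusted p = 5.19e-06). On the brighter 217165_x_at it read 13.46, 13.52 and 13.59 in U87MG and 12.60, 12.61 and 12.38 in T98G. That difference, 0.99 (0.75 to 1.24, adjusted p = 9.44e-05), lay just under the 2-fold minimum. It passed the minimum without U87MG replicate 1 (1.03), T98G replicate 1 (1.03) or T98G replicate 2 (1.04), after median centring (1.01) and after repeated quantile normalization (1.04). For MT1E and MT1F alike, the U87MG arrays lay above every T98G array on both probe sets.

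MT1M, another MT1 isoform, had the widest difference among the members. Its only probe set, 217546_at, lacks the _x_at mark. It read 8.41, 8.84 and 9.14 in U87MG and 5.69, 5.47 and 5.33 in T98G. The gap between the lowest U87MG array and the highest T98G array was larger than the spread within either line. The difference was 3.30 (SE 0.18, 2.89 to 3.72, limma adjusted p = 1.34e-06), a fold of 9.87 with a 95% interval of 7.41 to 13.1, and 0.729% of all probe sets had a larger positive one. T98G levels lay within the range of the leukocyte and endothelial markers and U87MG levels above it, so the size of the fold depends on the authors' background correction. It is the sole called metallothionein probe set left when those ending in _x_at, _s_at or _a_at are set aside, out of 3 remaining.

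MT3, the growth-inhibitory isoform of brain, showed no called difference. Its probe set 205970_at read 6.53, 6.70 and 6.60 in U87MG and 6.67, 6.63 and 6.76 in T98G, with overlapping arrays. The difference was -0.08 (-0.30 to 0.15, limma adjusted p = 0.616), an interval that leaves out a 2-fold difference in these readings. Both lines read within the range of the leukocyte and endothelial markers, so MT3 transcript is not shown in either.

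Other family genes with a probe set of their own were MT1HL1 and MT4. MT1HL1, read by an _x_at probe set, had 14.12 ± 0.10 in U87MG and 13.69 ± 0.06 in T98G (SD, n = 3 each), a difference of 0.42 (limma adjusted p = 0.00864). MT4, an isoform of stratified squamous epithelium, had 6.58 ± 0.12 in U87MG and 6.46 ± 0.15 in T98G, with overlapping arrays and a difference of 0.12 (-0.14 to 0.39).

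All 9 metallothionein _x_at probe sets were higher in U87MG at an adjusted p under 0.05, against 17.8% of all probe sets, by 0.29 to 1.94. They may bind transcripts of the same genes, which was not tested, so they cannot be counted as 9 separate measurements. U87MG replicate 1 was the lowest U87MG array on 8 of the 9, and T98G replicate 3 the lowest T98G array on 8. On the metallothionein probe sets without the mark, each of these arrays was the lowest of its line on 2 of 3. Of the 3 metallothionein probe sets without the mark, 1 was called higher, against 5.93% of all probe sets, and the other 2 were not called.

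**Figure D2:**
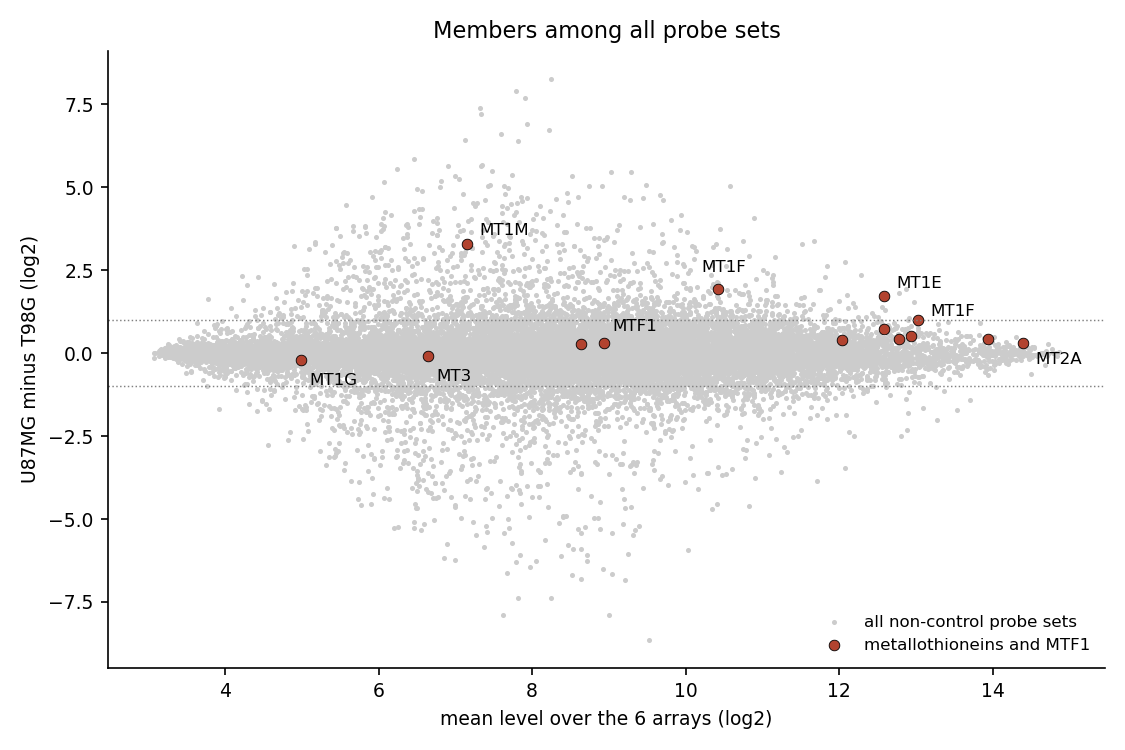
Difference between lines (U87MG minus T98G, log2) against mean level over the 6 arrays (log2) for every non-control probe set in grey, with the members in red and dotted lines at 2-fold. MT1M, MT1F and MT1E lie above the upper line at 3.30, 1.94 and 1.73, while MT2A lies at the bright end at 0.29.

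Members were then compared in how far they moved, as the difference between each member and MT2A on the same array, on the brightest probe set of each gene. Relative to MT2A, U87MG was further above T98G for MT1M by 3.01, for MT1E by 1.43, for MT1F by 0.70, for MT1H by 0.22, for MT1X by 0.13 and for MT1G by 0.12, and MT3 was at -0.37. In each of these 7 the arrays of the lines did not overlap. No share of all probe sets is given for this, and subtracting MT2A can itself separate the lines. It is therefore not read as a result about the members. Without the subtraction, 23.0% of all probe sets were separated with U87MG higher and 26.1% with U87MG lower. MT3 itself differed by only -0.08 on readings in the marker range, so its -0.37 comes mainly from the 0.29 of MT2A. The exact two-sided permutation p of 0.10 (adjusted p = 0.114 over 8 members) is the smallest that 3 against 3 arrays allow. This test therefore decides nothing beyond the lack of overlap. The amounts depended on the probe set: averaged within genes, MT1F was at 1.17, MT1E at 0.94 and MT1G at -0.19, so the order of MT1E and MT1F turned. They also rest on MT2A, which read near the top of the scale.

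In the order of genes along chromosome 16, the genes listed for the called probe sets stood next to each other among the genes measured. The annotation runs MT4, MT3, MT2A, MT1E, MT1M, MT1A, MT1B, MT1F, MT1G, MT1H and MT1X, and 9 of these 11 genes had a probe set, MT1A and MT1B being without one. MT1E, MT1M and MT1F, with their largest differences of 1.73, 3.30 and 1.94, lay between MT2A at 0.29 and MT1G at 0.42. This grouping was picked out after the values were seen. MT1E and MT1F were called only on _x_at probe sets, where sister genes cannot be told apart, so their signals cannot be placed at 1 gene. On its brightest probe set, the choice used for the flanking genes, MT1F had 0.99 and was not called. Of the 10 protein-coding genes on each side of the cluster, 12 of 20 were measured. On their brightest probe sets, 0 of the 12 were called higher and 2 lower by limma, against 6.56% and 7.01% of all genes. In the higher direction, 2 of the 12 had an unadjusted p under 0.05. At the stricter adjusted p under 0.05, 17.8% of all probe sets were higher. The median difference of the 12 was -0.13.

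CES1, a carboxylesterase, was 9.94-fold lower in U87MG, with 6.28, 6.49 and 6.21 in U87MG against 9.08, 9.90 and 9.94 in T98G. The U87MG values lay in the range of the leukocyte and endothelial markers. NUDT21, an mRNA cleavage factor subunit, was 2.32-fold lower, with 10.31, 9.79 and 9.71 in U87MG against 11.29, 11.09 and 11.08 in T98G. PSME3IP1, a proteasome activator partner, and ARL2BP, which binds the GTPase ARL2, were higher by 0.97 and 0.38 at limma adjusted p = 0.000135 and 0.0282, short of 2-fold. NUP93, a nuclear pore protein gene next to MT1X, had -0.14 (adjusted p = 0.267). With 6.56% of all genes called higher, 0 of 12 flanking genes is near that share and tells little about the region.

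**Figure D3:**
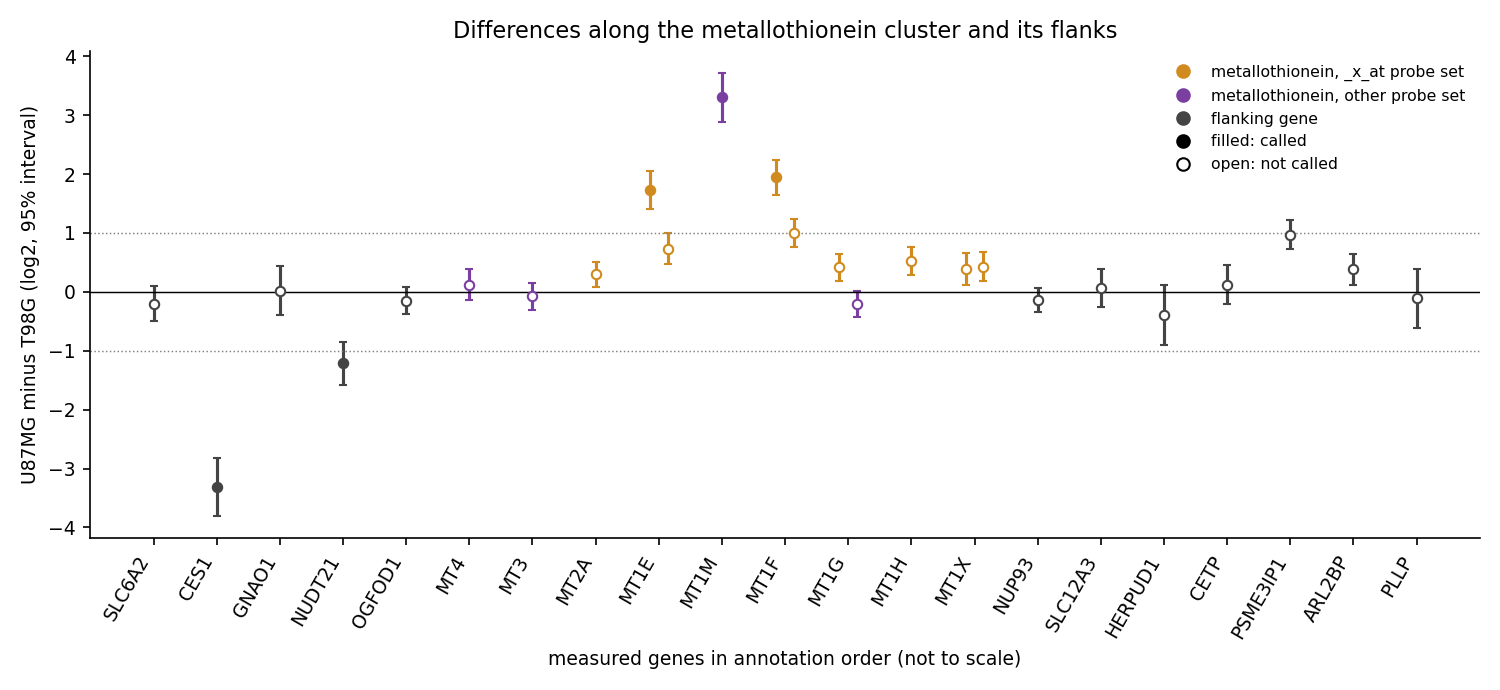
Difference between lines (U87MG minus T98G, log2) with its 95% interval for each measured gene in annotation order along chromosome 16, showing every metallothionein probe set and the brightest probe set of each flanking gene. Filled points were called and dotted lines mark 2-fold: MT1E, MT1M and MT1F are called higher at 1.73, 3.30 and 1.94, and CES1 and NUDT21 lower at -3.31 and -1.22.

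MTF1, the activator of the cluster, differed little. Probe set 205322_s_at read 9.14, 9.09 and 9.02 in U87MG and 8.82, 8.77 and 8.77 in T98G, a difference of 0.30 (SE 0.09, 0.09 to 0.51, limma adjusted p = 0.0317). Probe set 205323_s_at read 8.72, 8.73 and 8.88 in U87MG and 8.40, 8.58 and 8.52 in T98G, a difference of 0.27 (0.04 to 0.51, adjusted p = 0.0662). The U87MG arrays lay above the T98G arrays on both, and neither difference reached 2-fold. The adjusted p of 205322_s_at was 0.0796 to 0.0974 without U87MG replicate 1 or 2 or without any of the T98G arrays. Relative to MT2A on the same array, MTF1 differed between lines by 0.00 (exact permutation p = 0.70), and this sign changed with the arrays used.

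Zinc transporters move the metal that MTF1 senses. On the brightest probe sets of all genes, 6.56% were called higher in U87MG and 7.01% lower. At an adjusted p under 0.05 with no minimum difference, 17.8% of all probe sets were higher and 19.7% lower. Shares at an unadjusted p under 0.05 are not given, and can only be as large or larger. Of 7 zinc exporters measured, 1 was called higher and 0 lower by limma, with 3 lower at an unadjusted p under 0.05 (median difference 0.09, beside -0.01 over all genes). The called one, SLC30A1, which exports zinc at the plasma membrane and is an MTF1 target, read 11.29, 11.47 and 11.26 in U87MG and 9.84, 10.28 and 9.98 in T98G. That is a 2.47-fold difference (1.30, SE 0.13, limma adjusted p = 6.99e-05) with no overlap of the lines. Of 8 zinc importers, 2 were called higher and 0 lower, with 2 lower at an unadjusted p under 0.05 (median 0.10). SLC39A8, which takes up zinc, manganese and cadmium, read 10.83, 10.69 and 10.48 in U87MG and 8.63, 8.56 and 8.63 in T98G, or 4.17-fold more. Its 4 probe sets ran from 0.09 to 2.06, and 2 were called. SLC39A4, the intestinal zinc importer, read 8.62, 8.38 and 8.60 in U87MG and 6.88, 6.30 and 6.58 in T98G, a 3.86-fold difference whose T98G side lay in the range of the leukocyte and endothelial markers.

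MTF1 targets outside the family, known mostly from mouse, did not share 1 direction. Of 6 measured, 1 was called higher and 1 lower, against 6.56% and 7.01% of all genes (median -0.18). So few genes do not set the list apart from those shares. The higher one was again SLC30A1. PGF was counted as not called, at -0.34 on its brightest probe set, but its other probe set had 1.14 and was called higher. GCLC, the catalytic subunit of the enzyme that starts glutathione synthesis, was 4.80-fold lower, with 10.04, 10.20 and 9.73 in U87MG against 12.20, 12.32 and 12.23 in T98G. NDRG1, a stress-induced gene picked out after its values were seen, had -0.98 and passed the 2-fold minimum when U87MG replicate 1 or T98G replicate 2 was left out, which made 2 lower.

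Copper genes were called in both directions, 1 higher and 2 lower of 8, against 6.56% and 7.01% of all genes (median -0.27). SLC31A2, a copper transporter of endosomes and lysosomes, was 4.41-fold higher, with 9.78, 9.58 and 9.62 in U87MG against 7.47, 7.48 and 7.61 in T98G. The copper-exporting ATPases were lower, ATP7A by 3.19-fold (6.78 ± 0.17 in U87MG against 8.45 ± 0.28 in T98G) and ATP7B by 2.69-fold (4.85 ± 0.15 in U87MG against 6.28 ± 0.29 in T98G). The second ATP7A probe set had -0.64, and ATP7A in U87MG and ATP7B in both lines lay in the range of the leukocyte and endothelial markers.

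Of 6 heavy metal stress genes, 1 was called higher and 2 lower, against 6.56% and 7.01% of all genes (median -0.56). HMOX1, which degrades haem and is induced by cadmium, had 10.62, 10.99 and 10.74 in U87MG against 8.80, 8.17 and 8.07 in T98G, a 5.42-fold difference. SLC7A11, the cystine importer, was 3.62-fold lower (11.03 ± 0.72 in U87MG against 12.89 ± 0.13 in T98G), and GCLM, the modifier subunit of the same enzyme as GCLC, was 2.55-fold lower. Among 10 other regulators of metallothionein transcription, 0 were called higher by limma, with 2 higher at an unadjusted p under 0.05, and 2 were called lower (median -0.20). At the stricter adjusted p under 0.05, 17.8% of all probe sets were higher. NFE2L2, the oxidative stress factor NRF2, was 3.49-fold lower (10.51 ± 0.52 in U87MG against 12.32 ± 0.14 in T98G). STAT3, a cytokine-activated factor, was 2.04-fold lower, and its difference of -1.03 fell short of 2-fold without U87MG replicate 3 (-0.98) or T98G replicate 3 (-0.95). Its other probe set had -0.83 and was not called.

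**Figure D4:**
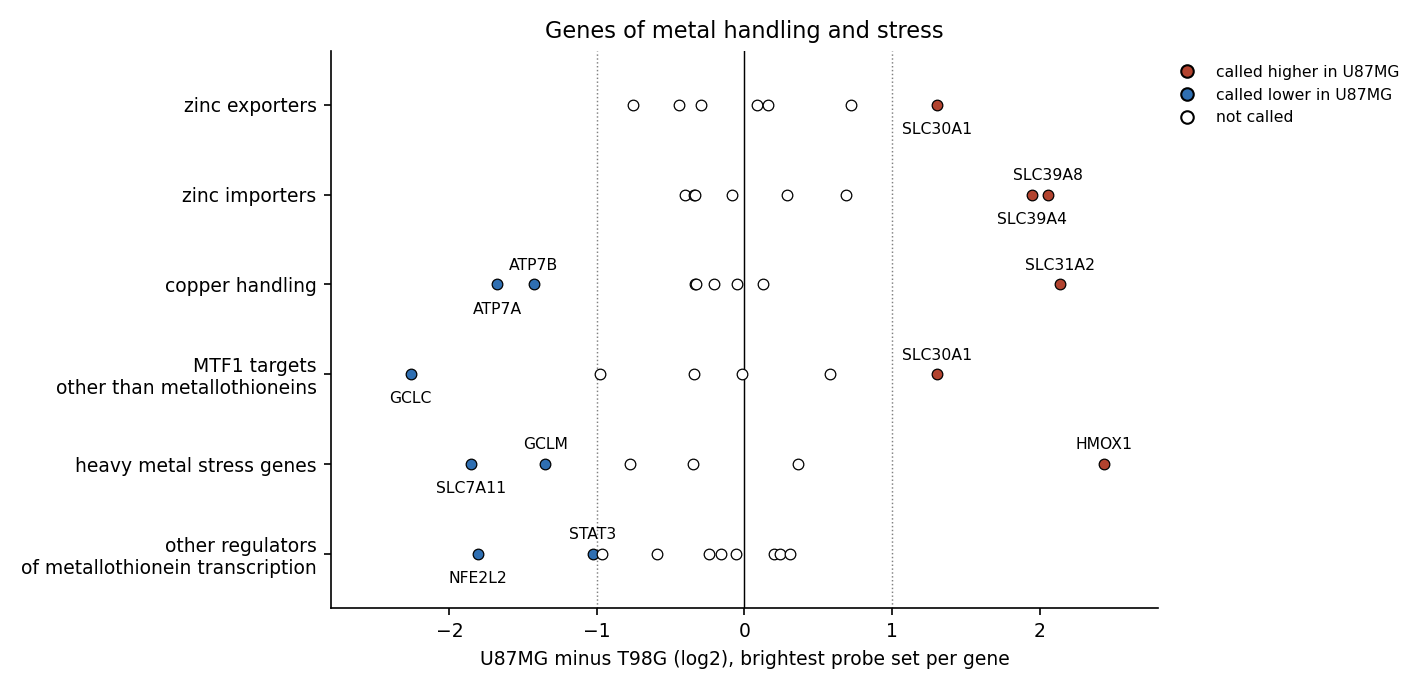
Difference between lines (U87MG minus T98G, log2) on the brightest probe set of each gene, in 6 lists of metal handling, metal stress and regulation. Red points were called higher in U87MG, blue points lower and open points not called, with dotted lines at 2-fold, and called genes run from GCLC at -2.26 to HMOX1 at 2.44.

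The 5 probe sets outside the family with the profile closest to MT2A over the 6 arrays, by root mean square difference of centred levels, were those of PRPF19, ESRRG, OAZ1, NFKB1 and PPP2R2A, at 0.0334 to 0.0422 on the log2 scale. Their differences between lines were 0.24 to 0.34, and none reached 2-fold. With 6 arrays of 2 lines this likeness reflects mainly the size of that difference.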

How the data were processed

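Total RNA from U87MG and T98G cells was biotin-labelled and read on Affymetrix arrays, as the labels' protocols state. Each deposited value is 1 probe set's level on a log2 scale. Per the submitters' processing notes the tools were RMA and limma, whose versions were not given in the sources used here. The RMA method subtracts background and equalises distributions between arrays, which can compress differences at either end of the scale. Deposited values ran from 2.90 to 14.93, and the number of arrays limits precision (median residual SD 0.149).

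Gene names came from a platform annotation of 2016, with symbols updated through Entrez identifiers in the RefSeq table of GRCh38.p14 (19058 matched, 12 kept their listed symbol). The comparison fitted a linear model to all 22215 non-control probe sets, with limma 3.58.1 (R 4.3.3), moderated two-sided tests and Benjamini-Hochberg adjustment over all of them. The model left 4 residual degrees of freedom, and the moderated tests add to these from the variance of all probe sets. Lists and flanking genes were read on the brightest probe set of each of 11963 genes. In simulated data for this comparison with 22215 probe sets, 93 of 100 shifted by 1.5 and 99 of 100 shifted by 3 were called, with 0 false calls. The simulated noise was normal and independent between arrays, and far fewer probe sets were shifted than differed in the real data. A false call also had to reach 2-fold, so the 0 is not an error rate for the real comparison.

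Members and lists were chosen with earlier results of these data known. Named genes were all family probe sets, up to 2 called genes per direction of each list, flanking genes and the profiles closest to MT2A. The fits were repeated with other thresholds, treat, a filter on dim probe sets (limit 7.63), repeated normalization, other variance models, a replicate block, other probe set choices and each array left out. Same-numbered arrays of the lines deviated together at r = 0.153, 0.0763 and 0.0813, so the numbers were not taken as pairs.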

Additional observations from a re-analysis of the deposited data

How the results depend on the processing

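Direction held for all 14 member probe sets under every alternative run on them, and the calls of MT1E 212859_x_at, MT1F 213629_x_at and MT1M held wherever these probe sets were tested. Of 215 member values under alternatives, 201 stayed on the same side of the call and 14 passed it. Of these 14, 8 came from dropping the 2-fold minimum, which by itself lets them pass. Another 264 values covered MT1HL1, MT4 and the called genes of the lists and flanks, and 12 of them lost the call and 1 gained it. Uncalled list and flanking genes, such as NDRG1, were not in that count, which therefore does not show gains among them. With no minimum difference, 11 members were higher, and 3963 of all probe sets were higher and 4382 lower. The same threshold gave 2 zinc exporters higher and 1 lower, 3 zinc importers higher and 2 lower, 2 MTF1 targets higher and 2 lower, 2 stress genes higher and 4 lower, and 1 regulator higher and 4 lower. Limma's treat against 2-fold gave 675 probe sets higher and 661 lower, 0 zinc exporters and 0 MTF1 targets higher, and 1 copper gene, 0 stress genes and 0 regulators lower. Counts over genes in place of probe sets were 785 higher and 839 lower for the brightest and 729 and 764 for the mean, which left 1 regulator lower. Without probe sets ending in _x_at, _s_at or _a_at, 11813 were tested, 681 higher and 708 lower, with 1 member higher of 3, 0 zinc importers higher and 1 copper gene lower. The filter on dim probe sets left 1 copper gene lower, and repeated quantile normalization 1 regulator lower. The mean per gene put MT1F at 1.17, MT1E at 0.94, MT1G at -0.19 and MTF1 at -0.0083 relative to MT2A.

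Leaving out each array gave 3 to 4 members higher and 0 lower, 1275 to 1450 probe sets higher and 1306 to 1497 lower. It gave 1 to 2 MTF1 targets lower and 1 to 3 regulators lower, and MTF1 relative to MT2A ran from -0.033 to 0.040. The replicate block gave 3 members higher and 0 lower, and 1320 and 1409 of all probe sets, while MT2A and MTF1 205322_s_at then missed an adjusted p of 0.05 (0.0671 and 0.0597). The cause of these shifts was not tested. Signal over background is a limit where MT1M and SLC39A4 in T98G, ATP7A and CES1 in U87MG, and ATP7B, MT3, MT4 and MT1G 210472_at in both lines read in the range of markers that these cells should lack. The same limit holds for NES in T98G, PDGFRA in U87MG and LUM in both lines, which read in or below that range.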
